A study of Mus musculus with 4 samples.

Results

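The classical class I presentation machinery was followed here as 10 genes, chosen by name from the 21445 gene rows of the study's table: H2-K1, H2-D1, B2m, Tap1, Tap2, Tapbp, Nlrc5, Erap1, Psmb8 and Psmb9. All 10 were found, each in 1 row. RNA came from cells labelled CD45-negative, prepared with CD45 magnetic beads from mouse lung tumours 10 weeks after adenoviral Cre was given through the nose. KL25 mice carried Lkb1fl/fl and Usp25-/-, and KL mice carried Lkb1fl/fl, so both groups share the floxed Lkb1 (Stk11) allele, and differ in Usp25, a deubiquitinase. Each group had 2 libraries, from 2 mice per the design text, and the labels give neither strain nor age nor the promoter that drives Cre. Only cells that the virus reached could recombine the floxed allele. The study set the groups side by side to learn how Usp25 promotes lung tumours.

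Class I molecules present peptides from inside the cell to CD8 T cells. The proteasome cuts proteins into peptides, Tap1 and Tap2 pump these into the endoplasmic reticulum, Erap1 trims them, and Tapbp (tapasin) holds the transporter next to an empty heavy chain bound to B2m. Interferon raises most of these genes, and Nlrc5 is the coactivator that acts with RFX, CREB/ATF and NF-Y proteins on class I promoters. Tumours can lower this machinery, which hides them from T cells.

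Class I genes are known to share regulatory elements near their starts, so the promoters of the heavy chains, of B2m and of the Tap1 and Psmb9 pair are given first. RefSeq promoter sequence (GRCm38.p6) was matched by symbol for 8 of the 10 genes, in 9 windows of the 250 bases before an annotated start. Capitals in the sequences below mark GGGATTCCC, the letters of an NF-kB element. They also mark TTTCACTTC, part of the interferon consensus of H-2 genes, and GAAANNGAA, the letters of an interferon-stimulated response element. Further capitals mark TGACG, the core that CREB/ATF proteins bind. Where ATTGG follows that core after 20 bases it is in capitals too, as the CCAAT box bound by NF-Y and read on the other strand. All were searched on both strands, and the marked matches do not overlap one another. The interferon consensus and the 20-base spacing were added to the search after the sequences had been seen.
H2-K1, chr17:34000348-34000597, minus strand: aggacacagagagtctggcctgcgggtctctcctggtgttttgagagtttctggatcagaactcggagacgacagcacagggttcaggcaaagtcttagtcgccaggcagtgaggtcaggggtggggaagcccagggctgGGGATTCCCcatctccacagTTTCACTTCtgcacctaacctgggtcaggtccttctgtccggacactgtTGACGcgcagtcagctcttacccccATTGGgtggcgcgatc
H2-D1, chr17:35262844-35263093, plus strand: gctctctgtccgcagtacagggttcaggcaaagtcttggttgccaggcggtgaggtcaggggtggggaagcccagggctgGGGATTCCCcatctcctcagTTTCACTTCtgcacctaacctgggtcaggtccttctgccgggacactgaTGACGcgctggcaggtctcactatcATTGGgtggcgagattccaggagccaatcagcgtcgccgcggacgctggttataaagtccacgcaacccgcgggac
B2m, chr2:122147437-122147686, plus strand: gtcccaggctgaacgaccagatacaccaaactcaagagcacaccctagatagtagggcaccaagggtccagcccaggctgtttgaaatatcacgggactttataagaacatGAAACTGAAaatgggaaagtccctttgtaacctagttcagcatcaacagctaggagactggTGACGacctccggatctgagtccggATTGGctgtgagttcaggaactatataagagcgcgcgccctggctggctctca
Psmb9 and Tap1, between their starts, chr17:34187331-34187555, Tap1 strand: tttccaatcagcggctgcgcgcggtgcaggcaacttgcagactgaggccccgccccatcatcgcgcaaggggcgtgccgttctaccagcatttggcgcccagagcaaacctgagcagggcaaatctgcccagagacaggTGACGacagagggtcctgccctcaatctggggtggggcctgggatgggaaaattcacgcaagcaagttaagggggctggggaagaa

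The CREB/ATF core with the inverted CCAAT box 20 bases after it stood in the windows of H2-K1, H2-D1 and B2m. That spaced arrangement was found in 0.0913% of all 32851 promoter windows of this length, and the core alone in 17.8%. The NF-kB letters were found in 0.301% of windows and the interferon consensus letters in 0.402%, and both stood in H2-K1 and H2-D1. Other forms of the NF-kB and interferon elements were not searched, so a window without these letters may still hold one. The spacing and the interferon consensus letters were chosen after these sequences had been seen, so their shares test no enrichment. H2-K1 and H2-D1 shared an identical run of 47 bases that spans the NF-kB letters, so their matches are not independent. The interferon-stimulated response element letters stood in B2m and Erap1 of the 8 genes and in 7.13% of all windows. The STAT letters TTCNNNGAA stood in Psmb8 of the 8 genes and in 7.02% of all windows. CCAAT in either direction, at any place, was found in 6 of the 8 genes and in 33.8% of all windows. GGGCGG, the GC box, was found in 3 of the 8 and in 32.7%.
The 225 bases between the divergent starts of Psmb9 and Tap1 held the CREB/ATF core, 86 bases before the Tap1 start, without the CCAAT box at that spacing. These matches are letters in the reference mouse genome, not measured binding.

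Of the 10 genes 7 lie on chromosome 17 in the mouse major histocompatibility complex, and Psmb9, Tap1, Psmb8 and Tap2 follow each other within 34.3 kb there (34181987 to 34216321, GRCm38, GENCODE). H2-K1 spans 33996017 to 34000347, H2-D1 35262730 to 35267499, and Tapbp 33915899 to 33929292 on the same chromosome. B2m lies on chromosome 2 (122147686 to 122153083), Nlrc5 on chromosome 8 (94434356 to 94527272) and Erap1 on chromosome 13 (74639568 to 74693201). Whether counting used the strand is not given in the sources used here, and 8 of the genes overlap another annotated gene, among them Tap1 with Psmb9, Erap1 with Cast and B2m with Patl2, so reads in those overlaps cannot be assigned with certainty. Heavy chain values are less certain for a second reason. Of the 50-base stretches in the longest annotated transcript, 14.3% for H2-D1 and 8.1% for H2-K1 also occur in transcripts of other genes, led by class I genes, against 2.0% for Tapbp and at most 0.7% for each of the other 7.

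Values per library are FPKM, fragments scaled for gene length and sequencing depth. Usp25, the deleted gene, was at 2.65 and 1.71 FPKM in the KL25 libraries, against 38.5 and 16.6 FPKM in the KL libraries. KL replicate 1 stood apart: the summed level of 6 neutrophil markers was 39973 FPKM there and 695 FPKM in KL replicate 2, against 1969 and 1161 FPKM in KL25 tumours, so fold changes and list medians are also given without it. The CD45-negative label was set against Ptprc, the gene of CD45 itself. It was at 51.0 and 43.3 FPKM in KL25 tumours and at 123 and 46.4 FPKM in KL tumours. In bulk RNA, fewer cells of a type and less RNA per cell cannot be told apart.

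All 10 genes had a lower mean in KL25 than in KL, and none passed the test across all genes. Every log2 fold change, KL25 minus KL, was negative (median -0.90), where 46.9% of all 12476 genes tested were negative and their median was 0.03. In 8 of 10 genes neither KL25 library reached the lower KL library, as in 15.0% of all genes tested (called lower without overlap hereafter), and H2-D1 and Tapbp were the exceptions. The 8 became 6 when libraries were rescaled to equal sums, to the upper quartile or to equal quantiles, as B2m and Erap1 then overlapped. In limma with Benjamini-Hochberg adjustment 0 of the 10 passed at 0.05, as did 0 of all genes tested (0%). The deleted gene Usp25 did not pass either (limma adjusted p = 0.942), so not passing does not show that a gene was unchanged. The authors' deposited table gave Usp25 an adjusted p of 0.0170. At an unadjusted p below 0.05 there were 2 of the 10, Tap2 and Psmb9, against 1.07% of all genes tested. The authors' deposited table gave 0 of the 10 an adjusted p below 0.05 (0.0339% of genes were called lower) and 2 had an unadjusted p below 0.05, Nlrc5 and Psmb9 (2.46% of genes). The direction of each gene was the same in the authors' deposited table.

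**Figure D1:**
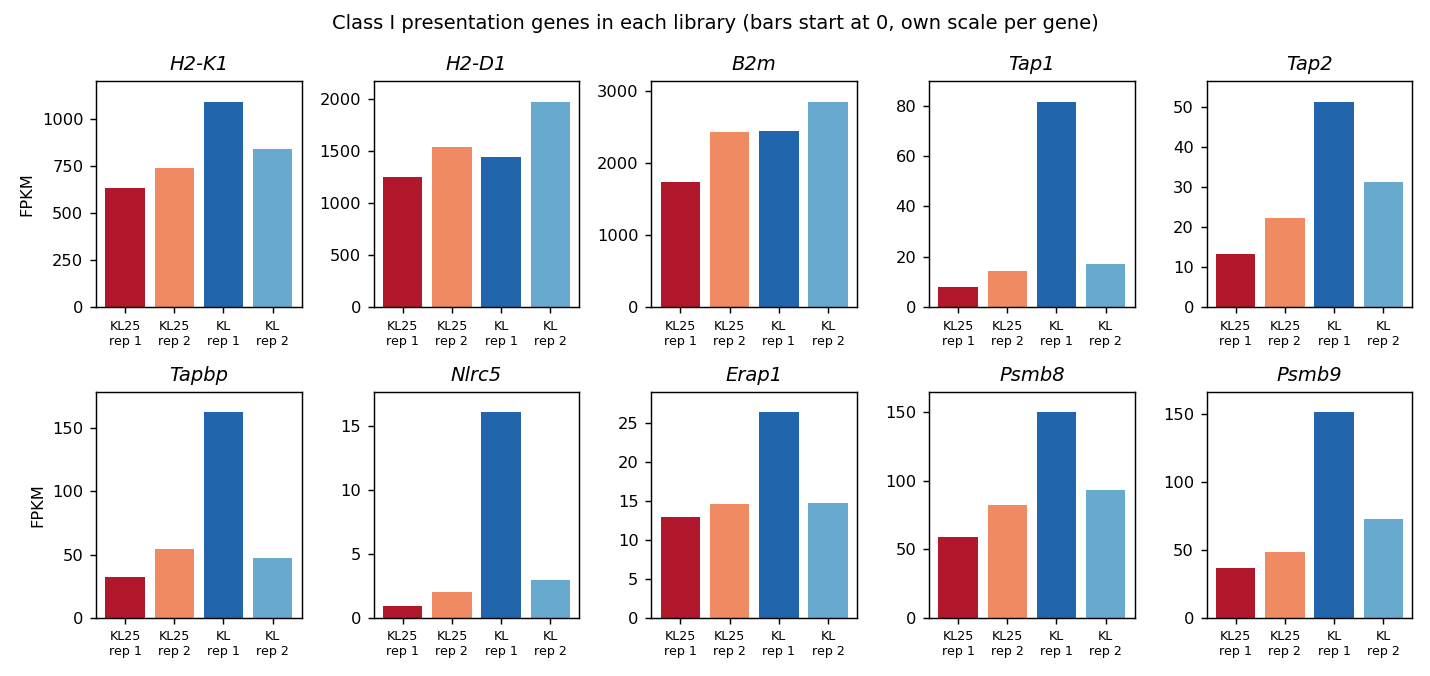
FPKM of each of the 10 genes in the KL25 and KL libraries, 1 bar per library, on an axis from 0 with its own scale for each gene. KL25 replicate 1 is the lowest library for all 10 genes, and KL replicate 1 is the highest for 8 of them.

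The heavy chains and B2m were the most abundant members, with log2 fold changes of -0.49 to -0.28. H2-K1, a classical heavy chain, was at 630.2 and 739 FPKM in KL25 tumours, against 1092 and 839 FPKM in KL tumours. Its groups did not overlap, and the KL mean was 1.41-fold higher (684 ± 76.8 FPKM in KL25 tumours and 966 ± 179 FPKM in KL tumours, SD, n = 2 each). Its log2 fold change was -0.49 (SE 0.383, limma adjusted p = 0.942), and -0.30 without KL replicate 1. H2-D1, the other heavy chain measured here, was at 1252 and 1540.1 FPKM in KL25 tumours and at 1448 and 1978 FPKM in KL tumours. Here the groups overlapped, KL replicate 1 lay below KL25 replicate 2, and the log2 fold change was -0.28 (SE 0.417, limma adjusted p = 0.944), and -0.51 without KL replicate 1. B2m, the light chain that every class I molecule needs, was at 1741 and 2431 FPKM in KL25 tumours, against 2448 and 2851 FPKM in KL tumours. KL25 replicate 2 and KL replicate 1 were nearly equal for B2m, and the change was -0.36 on the log2 scale (SE 0.433, limma adjusted p = 0.942). Leaving out KL replicate 1 gave -0.47, while leaving out a KL25 library gave -0.12 (replicate 1) or -0.60 (replicate 2).

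Set against the light chain, the heavy chains gave ratios that overlapped between the groups. H2-K1 stood to B2m at a ratio of 0.333 ± 0.0411 in KL25 and 0.370 ± 0.107 in KL. H2-D1 stood to B2m at 0.676 ± 0.0608 in KL25 and 0.643 ± 0.0725 in KL (ratios of FPKM, SD, n = 2 each). The log2 differences of these ratios were -0.13 for H2-K1 and 0.076 for H2-D1, and both turned sign without KL replicate 1, at 0.17 and -0.039.

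The peptide transporter and its partner tapasin had larger differences, and these rested unequally on KL replicate 1. Tap1 was at 8.04 and 14.3 FPKM in KL25 tumours, against 81.7 and 17.1 FPKM in KL tumours. Both KL libraries lay above both KL25 libraries, but KL replicate 1 was 4.78-fold above KL replicate 2, which itself was 1.54-fold above the KL25 mean. The log2 fold change of Tap1 was -1.72 (SE 0.767, limma adjusted p = 0.942) with all libraries and -0.63 without KL replicate 1. Tap2, the other chain of the transporter, was at 13.4 and 22.3 FPKM in KL25 tumours, against 51.3 and 31.3 FPKM in KL tumours. Its KL libraries lay closer together, and the change was -1.17 (SE 0.410, limma adjusted p = 0.942) with all libraries and -0.82 without KL replicate 1. Tapbp was at 32.3 and 54.4 FPKM in KL25 tumours and at 162 and 47.5 FPKM in KL tumours. KL replicate 2 lay between the KL25 libraries for this gene, and the change was -1.05 (SE 0.654) with all libraries and -0.18 without KL replicate 1.

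Nlrc5 had the lowest level and the largest fold difference of the 10 in means. It was at 0.930 and 1.99 FPKM in KL25 tumours, against 16.1 and 2.93 FPKM in KL tumours. The groups did not overlap, with a KL mean 6.52-fold higher. KL replicate 1 was 5.49-fold above KL replicate 2, which was 2.01-fold above the KL25 mean. On the log2(FPKM + 1) scale, which understates the change of low genes, the difference was -1.77 (SE 0.740, limma adjusted p = 0.942). Without KL replicate 1 it was -0.71. The authors' deposited table gives Nlrc5 a log2 fold change of -2.77 (SE 1.29, adjusted p = 0.99997).

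Genes that cut and trim the peptides were also lower in mean. Psmb8, the immunoproteasome subunit that replaces Psmb5, was at 59.0 and 82.3 FPKM in KL25 tumours, against 150 and 93.0 FPKM in KL tumours. Psmb9, which replaces Psmb6, was at 36.7 and 48.6 FPKM in KL25 tumours, against 151 and 72.4 FPKM in KL tumours. Neither pair of groups overlapped, and of these subunits Psmb9 had the larger change, -1.29 (SE 0.451, limma adjusted p = 0.942), against -0.75 (SE 0.391) for Psmb8. Without KL replicate 1 the changes were -0.77 for Psmb9 and -0.41 for Psmb8. Erap1, the aminopeptidase of the endoplasmic reticulum, was at 12.9 and 14.6 FPKM in KL25 tumours, against 26.4 and 14.8 FPKM in KL tumours. Its KL replicate 2 was close to KL25 replicate 2, and its change of -0.49 (SE 0.368) was -0.10 without KL replicate 1.

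**Figure D2:**
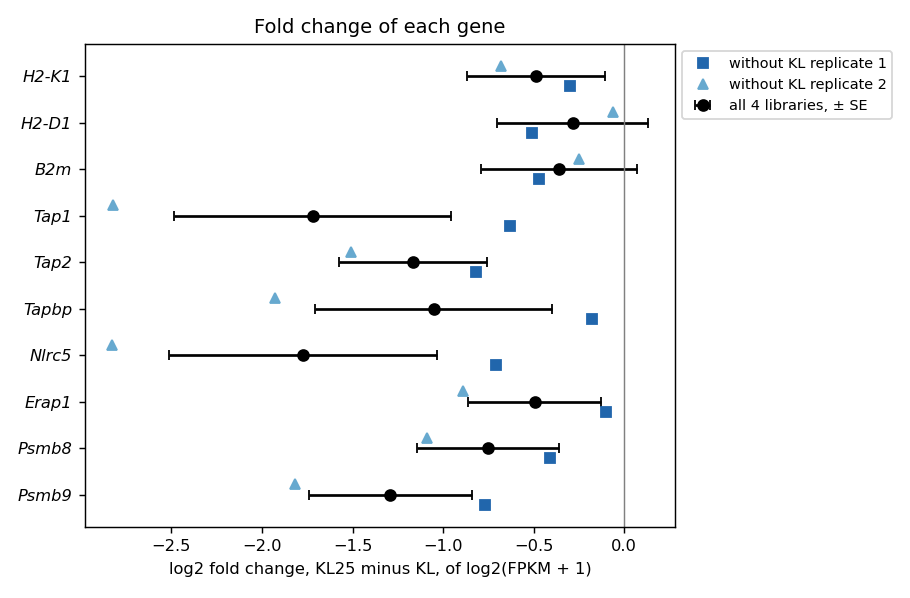
Log2 fold change of each gene, KL25 minus KL, of log2(FPKM + 1). Circles with bars give the value from all 4 libraries with its standard error, squares that without KL replicate 1 and triangles that without KL replicate 2, and all values lie below 0, and Tap1, Tapbp and Nlrc5 move most between squares and triangles.

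The order of the levels, per gene length, was B2m, H2-D1, H2-K1, Psmb8, Psmb9, Tapbp, Tap1, Tap2, Erap1 and Nlrc5 from high to low in the mean of the 4 libraries. H2-K1 was set apart from both of its neighbours, as its highest library (1092 FPKM) lay below the lowest of H2-D1 (1252 FPKM) and its lowest (630.2 FPKM) above the highest of Psmb8 (150 FPKM). B2m and H2-D1 overlapped across libraries, as did Psmb8, Psmb9 and Tapbp, and likewise Tap1, Tap2 and Erap1. Tap1 also reached into the ranges of Psmb8, Psmb9 and Tapbp, and Tap2 into those of Psmb9 and Tapbp. Nlrc5 ranged from 0.930 to 16.1 FPKM and overlapped the lower values of Tap1, Tap2 and Erap1. The ratio of the highest to the lowest library was 1.58 for H2-D1, 1.64 for B2m and 1.73 for H2-K1, and 2.04 to 17.3 for the other 7 genes. The least abundant gene thus varied most between libraries and the 3 most abundant least.

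Libraries of 1 group differed in a shared direction. KL25 replicate 1 was below KL25 replicate 2 for all 10 genes and was the lowest of the 4 libraries for all 10, as for 25.2% of all genes tested. KL replicate 1 was the highest for 8 of the 10, as for 30.2% of all genes tested, and KL replicate 2 was the highest for H2-D1 and B2m. For 4 genes, Tap1, Tapbp, Nlrc5 and Psmb9, KL replicate 1 was more than 2 times KL replicate 2. Without KL replicate 1 all 10 changes were negative, with a median of -0.49, where the median of all genes tested was -0.01. KL replicate 2 lay above both KL25 libraries for 9 genes. Both outcomes were fixed for the 8 genes lower without overlap, so only H2-D1 and Tapbp could have differed. The shares of all genes with these patterns were not counted in that setting, where groups separate more easily. The median of the 10 was -0.60 without KL25 replicate 1, -1.20 without KL25 replicate 2 and -1.30 without KL replicate 2.

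Immunoproteasome subunits were lower relative to the constitutive subunits they replace in both KL25 libraries than in either KL library. Psmb8 stood to Psmb5 at 0.441 and 0.818 in KL25, against 1.57 and 0.915 in KL. For Psmb9 over Psmb6 the ratios were 0.206 and 0.364 in KL25, against 1.13 and 0.412 in KL. Psmb10, the third inducible subunit, stood to Psmb7 at 0.344 and 0.530 in KL25, against 0.883 and 0.676 in KL. None of these 3 ratios overlapped between groups, so leaving out KL replicate 1 could not turn the sign of a log2 difference. Without that library the differences were -0.61, -0.59 and -0.66, against -0.99, -1.31 and -0.86 with it. Of the 10 ratios computed 5 did not overlap, the other ones being Tap1 over B2m and Psmb9 over Psmb8. The share among other pairs of genes was not counted. The 2-sided exact permutation test gave p = 0.333 for each ratio, the smallest p that 2 against 2 libraries allow, and 0.666 after Benjamini-Hochberg adjustment over the 10 ratios computed. The constitutive subunits themselves had positive or near-zero changes, 0.23 for Psmb5, 0.0035 for Psmb6 and 0.19 for Psmb7, and 1 of the 3 was negative without KL replicate 1 (median 0.11). Psmb5 was at 134 and 101 FPKM in KL25 tumours and at 95.7 and 102 FPKM in KL tumours. Psmb10 was at 39.8 and 53.5 FPKM in KL25 tumours and at 79.5 and 67.8 FPKM in KL tumours.

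**Figure D3:**
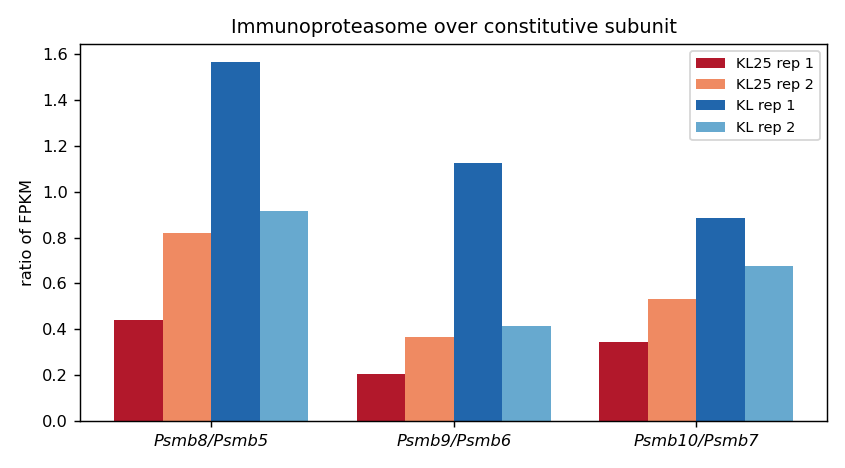
Ratio of FPKM of each inducible proteasome subunit to the constitutive subunit it replaces, 1 bar per library, on an axis from 0. For each ratio both KL25 bars lie below both KL bars, and KL replicate 1 is the highest.

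The other genes of the loading pathway had differences of both signs. Of 12 partners 7 had a negative and 5 a positive log2 fold change (median -0.04), and 0 passed in limma, with 1 at an unadjusted p below 0.05. Without KL replicate 1 there were 3 of 12 negative (median 0.06). KL25 was lower without overlap for 2 of the 12, Tapbpl and Psmb10, as in 15.0% of all genes tested. It was higher without overlap for 3 of the 12, Pdia3, Bcap31 and Canx, as in 19.1% of all genes tested. Both counts lie near these shares. Tapbpl (TAPBPR), a peptide editor related to tapasin, was at 9.66 and 8.79 FPKM in KL25 tumours, against 24.7 and 13.8 FPKM in KL tumours. Pdia3, the oxidoreductase of the loading complex, was at 324 and 277 FPKM in KL25 tumours, against 173 and 200.3 FPKM in KL tumours. Canx (calnexin), which folds new heavy chains, was at 83.9 and 91.5 FPKM in KL25 tumours, against 81.1 and 62.5 FPKM in KL tumours. Pdia3, Canx and Bcap31 also serve the folding and export of other proteins.

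Regulators of the pathway had mostly negative differences. Of 25 genes for interferon-gamma signalling and class I promoter factors 22 were negative (median -0.58), where 46.9% of all genes tested were. Lower without overlap were 12, against 15.0% of all genes tested. In limma 2 had an unadjusted p below 0.05 and 0 passed. Irf1, which interferon induces and which activates class I genes, was at 30.6 and 46.0 FPKM in KL25 tumours, against 242 and 78.6 FPKM in KL tumours. Irf8, a factor of myeloid and B cells, was at 9.39 and 16.2 FPKM in KL25 tumours, against 28.7 and 22.3 FPKM in KL tumours. Both were lower without overlap, and KL replicate 1 was 3.08-fold above KL replicate 2 for Irf1 and 1.29-fold for Irf8. Ifng, the cytokine itself, was listed at 0 in each KL25 library, against 8.36 and 0.456 FPKM in KL tumours, and was named after its values had been seen. Without KL replicate 1, 15 of the 25 regulators were negative, with a median of -0.19, and without KL replicate 2 the median was -0.91.

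Genes that interferon induces were also lower in mean, with KL replicate 1 far above the other libraries. All 11 tested interferon-gamma-induced genes were negative (median -1.93), where 46.9% of all genes tested were. Of the 11, 10 were lower without overlap, against 15.0% of all genes tested. The summed level of all 12 genes listed was 302 and 324 FPKM in KL25 tumours, against 2561 and 442 FPKM in KL tumours. Cxcl9, a chemokine that draws T cells, was at 2.18 and 1.53 FPKM in KL25 tumours, against 117 and 5.83 FPKM in KL tumours. Without KL replicate 1 all 11 were negative (median -0.55), a sign already fixed for the 10 without overlap. Without KL replicate 2 their median was -3.32. All 14 tested type I interferon-induced genes were also negative (median -1.27), and 4 were lower without overlap, against 15.0% of all genes tested. The summed level of all 15 genes of that list was 127 and 140 FPKM in KL25 tumours, against 677 and 137 FPKM in KL tumours. Without KL replicate 1 there were 6 of 14 negative (median -0.01). Leaving out KL replicate 2 instead gave 14 of 14 negative (median -3.11). In limma 0 genes of either list passed, with 2 at an unadjusted p below 0.05 in the first and 0 in the second. The part of these interferon-induced levels in the class I differences was not tested.

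The related heavy chains and the class II genes did not follow the 10 genes uniformly. Of 18 tested class I and class I-like heavy chains outside the classical set 13 were negative (median -0.47), where 46.9% of all genes tested were. Lower without overlap were 9 (15.0% of all genes tested), and 2 were higher without overlap (19.1% of all genes tested). Their median was -0.19 without KL replicate 1, with 13 negative. H2-Q8 had the opposite sign, with 3.51 and 4.63 FPKM in KL25 tumours and 0.197 and 0.141 FPKM in KL tumours, while H2-Q6 was at 4.89 and 14.6 FPKM in KL25 tumours against 47.6 and 27.1 FPKM in KL tumours. In the authors' deposited table H2-Q8 had a log2 fold change of 4.23 (adjusted p = 0.00261). These genes share sequence with one another and differ between mouse strains, which the labels do not name. Whether the groups carry the same H2 alleles was not tested, nor was the part of this in the levels of H2-K1, H2-D1 and the other members on chromosome 17. Class II genes were lowest in KL replicate 1, with a summed level of 2462 and 3314 FPKM in KL25 tumours, against 1169 and 5324 FPKM in KL tumours. Their median change of 0.22 became -0.88 without KL replicate 1 and 1.01 without KL replicate 2. When KL25 replicate 2 was left out it was -0.11.

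Markers of cell types also moved between the libraries. Of 15 CD45-positive leukocyte markers 13 were negative (median -0.62), where 46.9% of all genes tested were. Lower without overlap were 7, against 15.0% of all genes tested, and none of the 15 was at 0 in any library. Their median was -0.38 without KL replicate 1. Their summed level was 1903 and 2149.7 FPKM in KL25 tumours, against 3303 and 2708 FPKM in KL tumours. Leukocytes carry much class I, so these levels stand beside the class I values, and their part in the result was not tested. Of 16 pan-epithelial markers all were positive (median 0.94), where 53.1% of all genes tested were. Higher without overlap were 12, against 19.1% of all genes tested. The summed level of the 16 was 4478 and 1747 FPKM in KL25 tumours, against 1209 and 1075.0 FPKM in KL tumours. KL25 replicate 1, the lowest library for all 10 class I genes, had the highest epithelial level. Leaving it out lowered the epithelial median to 0.56, with 2 of 16 markers negative, while the median was 1.66 without KL25 replicate 2 and 1.18 without KL replicate 1. Epcam read 205 and 69.9 FPKM in KL25 tumours, against 57.8 and 35.8 FPKM in KL tumours. The part of the epithelial level in the low class I levels of KL25 replicate 1 was not tested. Of 10 macrophage markers 6 were negative (median -0.16), where 46.9% of all genes tested were. That count depended on the KL library, with 9 of 10 negative without KL replicate 1 (median -0.33) and 3 of 10 without KL replicate 2 (median 0.27). The 10 summed to 41568 and 40110 FPKM in KL25 tumours, against 19989 and 49582 FPKM in KL tumours, far above the epithelial sums. Lyz2 alone was at 31444 and 32571 FPKM in KL25 tumours, against 12613 and 38922 FPKM in KL tumours. The part of these cells in the class I levels was not tested.

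**Figure D4:**
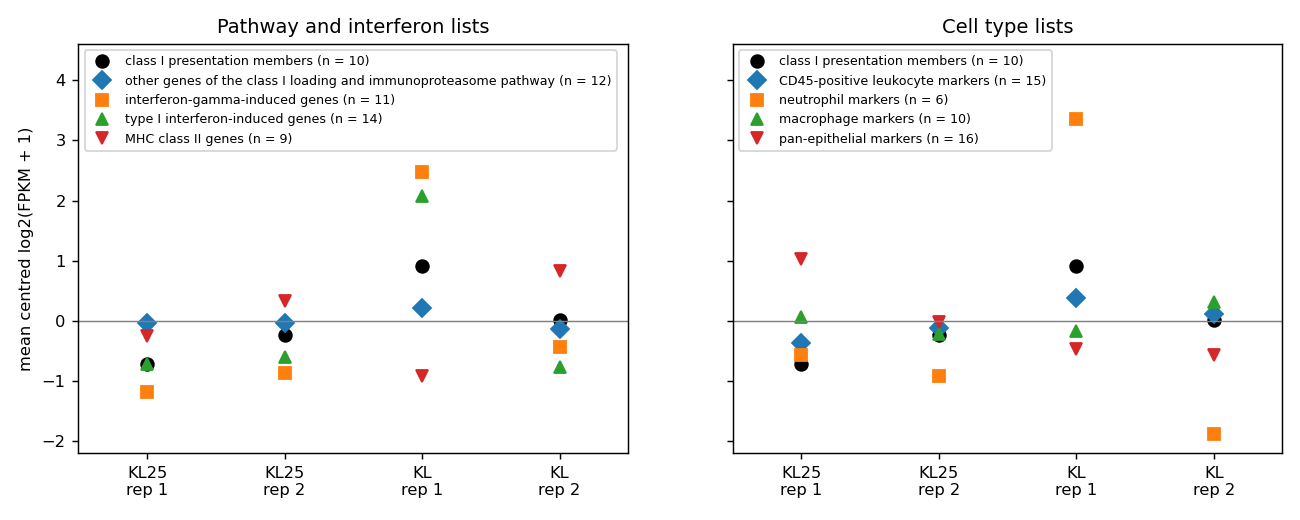
Mean of log2(FPKM + 1) over each gene list in each library, centred per gene on the 4 libraries, for pathway and interferon lists (left) and cell type lists (right). The 10 class I genes (black) lie at -0.71 and -0.23 in KL25 and at 0.92 and 0.02 in KL, while the epithelial markers lie highest in KL25 replicate 1 and the neutrophil markers highest in KL replicate 1.

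Likeness of pattern was measured as the root mean square difference between a gene's centred log2(FPKM + 1) values and the mean centred values of the 10 genes over the 4 libraries. The search covered 3143 genes averaging 20 FPKM or more, without the 10 members and without symbols of predicted genes, clones or mitochondrial genes. Among them the closest were Il10rb at 0.055, Lilrb4a at 0.063, Plk2 at 0.068, Syk at 0.070, and Sun2 and Vav1 at 0.073. The median of these genes was 0.740, and the 10 class I genes themselves lay at 0.121 to 0.609. Il10rb, a receptor chain for interleukin-10 family cytokines, was at 51.1 and 65.9 FPKM in KL25 tumours, against 161 and 85.3 FPKM in KL tumours. Vav1, a signalling protein of blood cells, was at 21.2 and 26.2 FPKM in KL25 tumours, against 66.1 and 33.6 FPKM in KL tumours. With 4 libraries many genes can share a profile, and the likeness is a description.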

How the data were processed

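Stranded mRNA libraries of 4 tumour cell preparations were sequenced; per the labels' protocols, HTSeq counted cutadapt-trimmed reads aligned to GRCm38. The submitters' processing notes also list GRCm39. The sources used here do not give the aligner, versions or strand setting. The values per library deposited by the authors were read as FPKM from their values (not whole, summing to 526632 to 565613), since the header names no unit. Per the file headers the authors also deposited a mean normalized count signal, log2 fold changes with standard errors, a test score, and p-values, of which the adjusted one is NA for 6653 genes. That count signal summed to 10577718 per library and was 441 to 30409 for the 10 genes, while counts per library were not recovered. 25 rows whose names had become dates (0.117% of FPKM) were left out. A second sheet repeats the values, and another, for other groups, holds only a title.

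KL25 was compared with KL on log2(FPKM + 1) without covariates, using the trended test of limma 3.58.1 in R 4.3.3. It covered the 12476 genes that averaged 1 FPKM or more in KL25 or in KL, and calls were made at a Benjamini-Hochberg adjusted p of 0.05. All 10 members met that minimum, and 1 group alone is enough to meet it. A count "without overlap" means both KL25 libraries on 1 side of both KL libraries. The fit was also run on simulated data, with gene spreads shuffled among genes and independent noise for each gene. That simulation does not cover shifts shared by many genes of a library, as in KL replicate 1, and no result rests on it. With 2 libraries per group, p-values rest on the variation within pairs of mice. The trended test also draws each gene's variance toward a trend across all genes tested. Genes were named by rule, namely the members, Usp25, Ptprc, Epcam, the constitutive subunits and Psmb10, at most 4 members with the lowest unadjusted p of each other list, and the 6 genes most alike in pattern; Ifng and Canx were named after their values were seen. The members and lists were chosen with earlier results of these data known. Promoter sequences are from RefSeq (GRCm38.p6), gene coordinates from GENCODE M21 (GRCm38), matched by symbol. Part of the genotype that both groups share is not reported here.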

Additional observations from a re-analysis of the deposited data

How the results depend on the processing

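The 10 genes kept a negative log2 fold change in all 14 alternatives fitted (pseudocounts of 0.1 and 5, no filter and a stricter filter, 3 scalings, no trend, array weights, a replicate block and leaving out each library), and 0 passed in any of them. The lowest adjusted p of a member was 0.177, for Psmb9 without KL replicate 2, and over the alternatives limma gave Psmb9 up to 1.000. With 2 libraries per group, the filters, the trend, the array weights and the block cannot change a fold change. For genes lower without overlap, the pseudocount and leaving out 1 library cannot turn its sign. Those alternatives therefore do not test the direction. Ranges were -2.82 to -0.63 for Tap1, -2.83 to -0.71 for Nlrc5, -1.93 to -0.18 for Tapbp, -1.82 to -0.77 for Psmb9, -1.52 to -0.82 for Tap2, -1.09 to -0.41 for Psmb8, -0.89 to -0.10 for Erap1, -0.68 to -0.30 for H2-K1, -0.60 to -0.12 for B2m and -0.51 to -0.06 for H2-D1. The median of the 10 ranged from -1.30 to -0.49 when 1 library was left out, where the lone library of a group is assumed to vary like the other group. It was -0.83 with quantile normalization, and -1.05 over the authors' deposited log2 fold changes, an alternative chosen after seeing the data. Replicate numbers in the titles are not said to mark shared animals or days, and deviations of same-numbered libraries from their group means correlated at 0.152 across genes. With the replicate number as a block 0 of the 10 genes passed, so the block changed no call. A block cannot change a mean difference in this balanced design. The median of -0.90 and the ratio differences of -0.99, -1.31 and -0.86 were therefore the same by construction.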

Other observations

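Other cell type lists gave no uniform direction, and each changed the sign of its median when 1 library was left out. Of all genes tested 46.9% were negative. The 6 neutrophil markers tested were all negative (median log2 fold change -1.42) and all positive without KL replicate 1 (median 1.13), with a median of -4.03 without KL replicate 2. T and NK cell markers were negative in 5 of 9 (median -0.05), with Nkg7 and Klrd1 listed at 0 in at least 1 library, and 3 B cell markers were all positive (median 0.79). Dendritic cell markers were negative in 1 of 4 (median 0.04), alveolar type 2 markers in 2 of 8 (median 0.17), fibroblast and mural markers in 2 of 8 (median 0.35) and blood endothelial markers in 9 of 9 (median -0.34). The endothelial count became 1 of 9 (median 0.13) without KL25 replicate 1 and 2 of 9 (median 0.20) without KL replicate 2. For T and NK markers, leaving out KL25 replicate 1 gave a median of 0.57, and leaving out KL25 replicate 2 gave -0.50. Leaving out KL25 replicate 2 gave medians of -0.20 for dendritic (3 of 4 negative), -0.13 for alveolar type 2 (4 of 8), -0.03 for fibroblast and mural (4 of 8) and -0.12 for B cell markers (2 of 3). Leaving out KL25 replicate 1 gave 0.33, 0.55, 0.84 and 1.46 for the same lists, and leaving out KL replicate 1 gave -0.05, -0.02, 0.36 and 0.43. The lists of lymphoid cells lay low, also with the markers below the minimum for testing. All 10 T and NK markers listed summed to 52.7 and 91.4 FPKM in KL25 tumours and to 29.1 and 87.6 FPKM in KL tumours. All 5 B cell markers listed summed to 4.17 and 21.3 FPKM in KL25 tumours and to 3.55 and 6.71 FPKM in KL tumours.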
